A study of Mus musculus with 16 samples.

Results

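The mitosis and proliferation genes described here are 35 genes whose products copy, condense, attach, segregate or separate chromosomes. They were taken by gene symbol, with earlier results of these data known, and all 35 were found in both count tables of the series, among 14138 named rows in the first and 17831 in the second. RNA was sequenced from 16 mouse hearts. The first table holds 5 wild type hearts and 5 CPT2H-KO hearts, in which carnitine palmitoyltransferase 2, an inner mitochondrial membrane enzyme of long-chain fatty acid oxidation, was deleted in cardiomyocytes. The second holds 3 CPT2 single KO hearts, whose genotype label is also CPT2H-KO, and 3 CPT2/USP30 double KO hearts. The double KO hearts lacked in addition USP30, which strips ubiquitin from proteins on the mitochondrial surface and so counteracts mitophagy. Both groups of the second table thus carried the CPT2 deletion, and no heart without it was in that table. Myh6-Cre, which is active in cardiomyocytes, was named for the USP30 deletion, and the driver of the CPT2 deletion was not named. Age and sex were not among the labels.

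Most transcripts of this kind are made mainly between S phase and the end of mitosis, and many of their proteins are destroyed as cells divide. The transcript level in a tissue is therefore only a rough guide to cycling cells, which were not counted here. Cenpf did not vary with the other members among wild type hearts, as described below. Cardiomyocytes of the adult mouse rarely divide, whereas endothelial cells, fibroblasts and immune cells of the same heart can. Whole-heart RNA pools all of these cells, those in which Cre does not act included, and fewer cycling cells cannot be told apart from less of these transcripts per cycling cell.

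Many genes of this class are switched on together through a pair of promoter elements, the CCAAT box, bound by NF-Y, and the cell cycle genes homology region (CHR), bound by the MuvB complex with B-MYB or FOXM1. The promoters of 3 members are shown, and they were chosen for holding both elements. Among members with both in a stretch free of annotated exons, these had the highest mean CPM in the second table. The sequences are from RefSeq (GRCm38.p6), 5′ to 3′ on the strand of the gene, ending at or just before the annotated start. Capitals mark CCAAT and the CHR letters TTTGAA or TTCGAA, read on either strand (ATTGG and TTCAAA on the other). The Mki67 stretch is chr7:135716380-135716629, minus strand, that of Top2a is chr11:99024190-99024439, minus strand, and that of Cdk1 is chr10:69352939-69353162, minus strand.
Mki67: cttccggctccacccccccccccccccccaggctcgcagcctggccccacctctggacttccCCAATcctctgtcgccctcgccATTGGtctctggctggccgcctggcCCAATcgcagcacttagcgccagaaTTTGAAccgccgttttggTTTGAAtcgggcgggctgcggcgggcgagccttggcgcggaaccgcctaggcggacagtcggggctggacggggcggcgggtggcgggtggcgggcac
Top2a: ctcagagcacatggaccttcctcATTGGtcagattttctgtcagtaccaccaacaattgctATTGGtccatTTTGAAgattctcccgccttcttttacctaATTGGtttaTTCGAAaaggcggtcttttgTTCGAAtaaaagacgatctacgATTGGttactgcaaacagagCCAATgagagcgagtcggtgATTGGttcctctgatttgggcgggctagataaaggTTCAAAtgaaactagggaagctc
Cdk1: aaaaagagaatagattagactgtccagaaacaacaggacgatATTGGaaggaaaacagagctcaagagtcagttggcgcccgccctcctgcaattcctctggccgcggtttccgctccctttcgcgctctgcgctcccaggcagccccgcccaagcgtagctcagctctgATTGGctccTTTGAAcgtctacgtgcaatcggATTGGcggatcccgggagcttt
Mki67 held 3 CCAAT boxes and 2 CHR matches, and the Top2a stretch held 6 and 4. Of the 30 members with a promoter entry, 24 (80%) had a CCAAT box in the 250 bases before the start, against 37.5% of 27025 genes. A CHR match was present in 11 (36.7%), against 19.6% of genes, and all 11 also had a CCAAT box, against 7.0% of genes with both. Cenpf had 2 CCAAT boxes and no CHR match in this window, as had Ccnb1, Aurka, Bub1 and Ttk. A match describes the letters only. In 23 of the 32 promoter entries of members, the first 30 bases after the start matched an annotated transcript of the gene near its 5′ end. Ccna2, Foxm1, Aurkb, Tpx2 and Kif20a had no entry.

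Depth was 54674422 to 132762776 counts in a library of the first table and 11067969 to 13532716 in one of the second, so that a member had 6 to 3234 counts in a library of the first table and 1 to 608 in one of the second. Values are CPM, the counts of a gene scaled to the library's size with trimmed-mean (TMM) factors. Cpt2 was lower in every CPT2H-KO library than in any wild type library, with 40.4 CPM ± 5.72 (SD, n = 5) against 77.9 ± 15.2 (SD, n = 5). Usp30 was lower in every double KO library, with 9.39 CPM ± 1.68 (SD, n = 3) against 21 ± 2.23 (SD, n = 3). Some differences between libraries crossed the groups. Y-linked transcripts were at background, under 1 CPM in sum, in wild type replicate 1, CPT2H-KO replicates 1 and 3, single KO replicate 3 and all 3 double KO libraries, and present in the others. The atrial light chain Myl7 was at 25.4 to 194 CPM in wild type libraries, and in CPT2H-KO replicates 1 to 5 at 14.1, 0.496, 0.285, 0.61 and 144 CPM. It was present, at 102 and 425 CPM, in double KO replicates 2 and 3 of the second table. The labels call the samples separate biological replicates and do not say whether hearts shared litters, so the p-values speak only for the variation among these hearts.

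In CPT2H-KO hearts 3 members rose, Ube2c, Spag5 and Rrm2, and 1 fell, Cenpf. The remaining 31 did not pass the test. Calls are at an adjusted p under 0.05 in edgeR's quasi-likelihood test over all 14123 genes tested, of which 16.7% were called higher and 17% lower, so the share of members called was not above that of all genes. All 34 members other than Cenpf had a log2 fold change above 0, from 0.29 (Kif23) to 1.81 (Ube2c), where 50.9% of all genes were below 0, and 14 of them had an unadjusted p under 0.05 in the higher direction, as had 22.2% of genes. The median over the 35 members was 0.82, beside -0.007 over all genes tested.

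**Figure D1:**
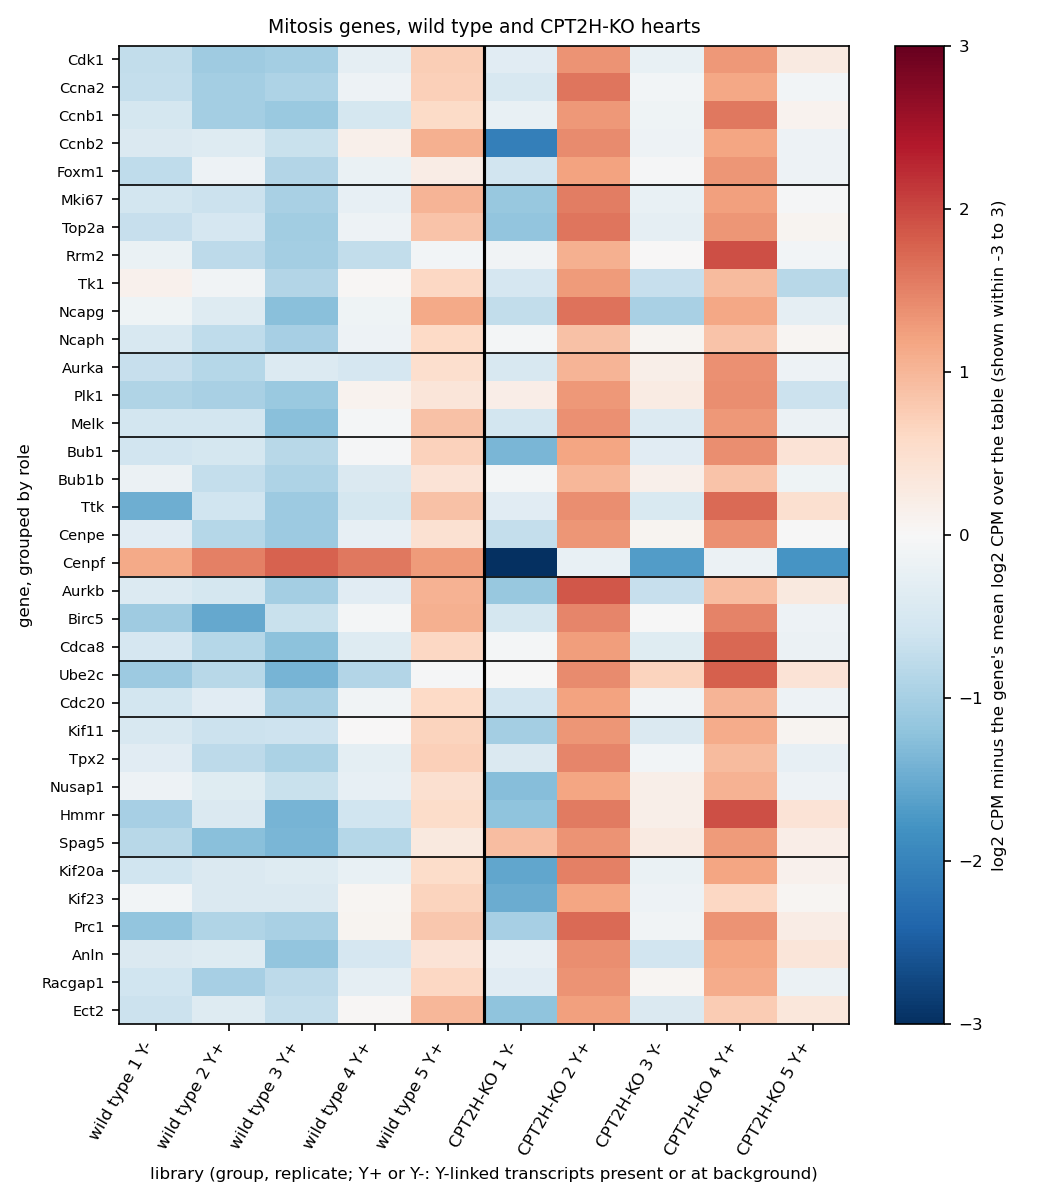
Each cell is the log2 CPM of a gene (rows, grouped by role) in a library (columns) minus the gene's mean over the 10 libraries, with Y+ or Y- for the presence of Y-linked transcripts. CPT2H-KO replicates 2 and 4 and wild type replicate 5 are high for nearly every gene, and the Cenpf row alone is high in all wild type and low in all CPT2H-KO libraries.

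The spread between hearts of a group was wide and shared by the members. Mki67, the proliferation antigen that coats mitotic chromosomes, was at 5.98, 5.6, 4.46, 7.42 and 17.8 CPM in wild type replicates 1 to 5 and at 3.99, 25.6, 7.53, 20.6 and 8.57 CPM in CPT2H-KO replicates 1 to 5. The groups overlapped, with CPT2H-KO replicates 2 and 4 highest, wild type replicate 5 next and CPT2H-KO replicate 1 lowest. The log2 fold change was 0.69, with SE 0.51 (edgeR adjusted p = 0.32). Top2a, the topoisomerase that untangles replicated DNA, was at 3.08, 3.51, 2.43, 4.46 and 9.05 CPM in wild type and 2.21, 15.1, 4.13, 12.6 and 5.27 CPM in CPT2H-KO replicates. It had the same 3 highest libraries and the same lowest one as Mki67, and its log2 fold change was 0.82, with SE 0.51 (edgeR adjusted p = 0.235).

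That order recurred across the list. Replicate 2 of CPT2H-KO was the highest of the 10 libraries for 22 of 35 members and replicate 4 for 12, while wild type replicate 3 was the lowest for 17 and CPT2H-KO replicate 1 for 11. Wild type replicate 5 exceeded the gene's mean over the table for 33 members. Summed over the 34 members other than Cenpf, the 5 wild type libraries had 29.9, 27.7, 22.7, 36.8 and 71.5 CPM and the 5 CPT2H-KO libraries 27.2, 115, 39.2, 103 and 44 CPM. Replicates 2 and 4 therefore held most of the summed CPM of the CPT2H-KO group, and CPT2H-KO replicates 1, 3 and 5 lay within the wild type range. The 3 CPT2H-KO libraries with Y-linked transcripts were all above the 2 without for 18 of 35 members, against 9.73% of genes, whereas the 4 such wild type libraries were all above wild type replicate 1 for 4 members, against 19% of genes. The part of sex in these differences was not tested beyond a sex term, with which the median was 0.88 and 6 members were called higher, beside 14.6% of genes.

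Among the cyclins, their kinase and FOXM1, none of 5 was called. Ccnb1, cyclin B1, the activator of CDK1 at mitotic entry, had the smallest p of the group, with 0.388, 0.274, 0.256, 0.386 and 0.826 CPM in wild type and 0.474, 1.36, 0.509, 1.65 and 0.594 CPM in CPT2H-KO replicates. Wild type replicate 5 lay above 3 of the CPT2H-KO libraries, and the other 4 lay below all of them, giving a log2 fold change of 1.15 (SE 0.44, edgeR adjusted p = 0.0645). Fold changes of the other 4 were 0.99 for Cdk1, 0.93 for Ccna2, 0.87 for Foxm1, a transcription factor of late cell cycle genes, and 0.42 for Ccnb2.

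Among the 6 genes of DNA and chromosome structure, Rrm2 rose. It encodes the regulated subunit of ribonucleotide reductase, which makes deoxyribonucleotides for DNA synthesis. Wild type libraries had 1.28, 0.856, 0.72, 0.887 and 1.39 CPM and CPT2H-KO libraries 1.36, 3.08, 1.48, 5.61 and 1.38 CPM, a log2 fold change of 1.35 (SE 0.41, edgeR adjusted p = 0.026). Only CPT2H-KO replicates 2 and 4 stood well clear, the lowest CPT2H-KO values were within the wild type range, and the call was lost without CPT2H-KO replicate 4 (log2 fold change 0.84, adjusted p = 0.0551) and without each of 4 other libraries (adjusted p of 0.0518 to 0.0643). Tk1, the salvage thymidine kinase, and the condensin subunits Ncapg and Ncaph had log2 fold changes of 0.30, 0.52 and 0.69.

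The 3 mitotic kinases of the list were not called. Plk1, polo-like kinase 1, which drives centrosome maturation and mitotic entry, had 0.137, 0.131, 0.118, 0.276 and 0.33 CPM in wild type and 0.296, 0.629, 0.305, 0.678 and 0.164 CPM in CPT2H-KO replicates. Wild type replicates 4 and 5 both exceeded CPT2H-KO replicate 5, so the groups overlapped, and the log2 fold change was 1.07, with SE 0.45 (edgeR adjusted p = 0.0868). Aurka, the centrosomal Aurora kinase, was at 0.89 and Melk at 0.73, neither past the threshold. The spindle checkpoint and kinetochore genes other than Cenpf were not called either: Ttk (MPS1), the kinase that starts checkpoint signalling, was at 1.22, the kinetochore motor Cenpe at 0.96, and the checkpoint proteins Bub1 and Bub1b at 0.76 and 0.74. In the chromosomal passenger complex, which corrects chromosome attachments and acts again in cytokinesis, Cdca8 (borealin) had 0.274, 0.214, 0.166, 0.296 and 0.595 CPM against 0.375, 0.927, 0.305, 1.29 and 0.344 CPM. Wild type replicate 5 exceeded 3 CPT2H-KO libraries, and the log2 fold change was 1.12, with SE 0.48 (edgeR adjusted p = 0.0926), beside 0.78 for Aurkb, the catalytic subunit, and 0.90 for Birc5 (survivin).

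Ube2c, the ubiquitin-conjugating enzyme that works with the anaphase-promoting complex to mark cyclins for destruction, rose by 1.81 (SE 0.37, edgeR adjusted p = 0.00406). Wild type libraries had 0.308, 0.369, 0.249, 0.36 and 0.644 CPM and CPT2H-KO libraries 0.652, 1.75, 1.04, 2.29 and 0.878 CPM. It was the only member whose CPT2H-KO values all lay above the wild type values, as did those of 11.5% of genes, although wild type replicate 5 and CPT2H-KO replicate 1 were nearly equal. Exons of Ube2c (chr2:164769898-164778822, plus strand) share 22.8% of their bases with Tnnc2 on the opposite strand, and whether the counting used strand is unknown here. Tnnc2 itself was not among the genes of the first table and had 0 to 4 counts in a library of the second. Cdc20, the activator of the same complex, was at 0.64 and was not called.

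Spag5 (astrin), which holds spindle poles and kinetochore fibres together, rose by 1.59 (SE 0.35, edgeR adjusted p = 0.00592). Wild type libraries had 0.467, 0.345, 0.319, 0.456 and 1.01 CPM and CPT2H-KO libraries 1.58, 2.09, 0.997, 2.02 and 0.947 CPM. Wild type replicate 5 exceeded CPT2H-KO replicates 3 and 5 by a small margin, and the other wild type values were below all CPT2H-KO values. The other spindle genes of the list, the motor Kif11 (0.62), the Aurora A activator Tpx2 (0.74), Nusap1 (0.59) and Hmmr (1.41), were not called. None of 6 cytokinesis genes was called. Anln (anillin), a scaffold of the contractile ring, had the smallest p of them, with 1.38, 1.43, 0.817, 1.3 and 2.45 CPM in wild type and 1.56, 4.88, 1.24, 4.19 and 2.38 CPM in CPT2H-KO replicates, overlapping groups and a log2 fold change of 0.97 (SE 0.39, edgeR adjusted p = 0.0774). Log2 fold changes of Prc1, Racgap1, Kif20a, Ect2 and Kif23 were 0.98, 0.88, 0.74, 0.40 and 0.29.

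Cenpf fell where the other members had positive fold changes. It encodes centromere protein F, a very large protein of the kinetochore corona that is also found at the nuclear envelope and microtubules, and whose loss from mouse cardiomyocytes is known to cause dilated cardiomyopathy. Wild type libraries had 14.4, 18.5, 22.4, 19.5 and 15.9 CPM and CPT2H-KO libraries 0.613, 5.61, 2.03, 5.75 and 1.92 CPM. The groups were far apart, and no other member was below all wild type values in all CPT2H-KO libraries, an arrangement found for 13.2% of genes. The log2 fold change was -2.50, with SE 0.46 (edgeR adjusted p = 0.00216), a fold change of -1 or lower being found for 3.54% of genes. The gene lies at chr1:189640606-189688086 on the minus strand (GRCm38, GENCODE M21), and no exon base is shared with another annotated gene.

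**Figure D2:**
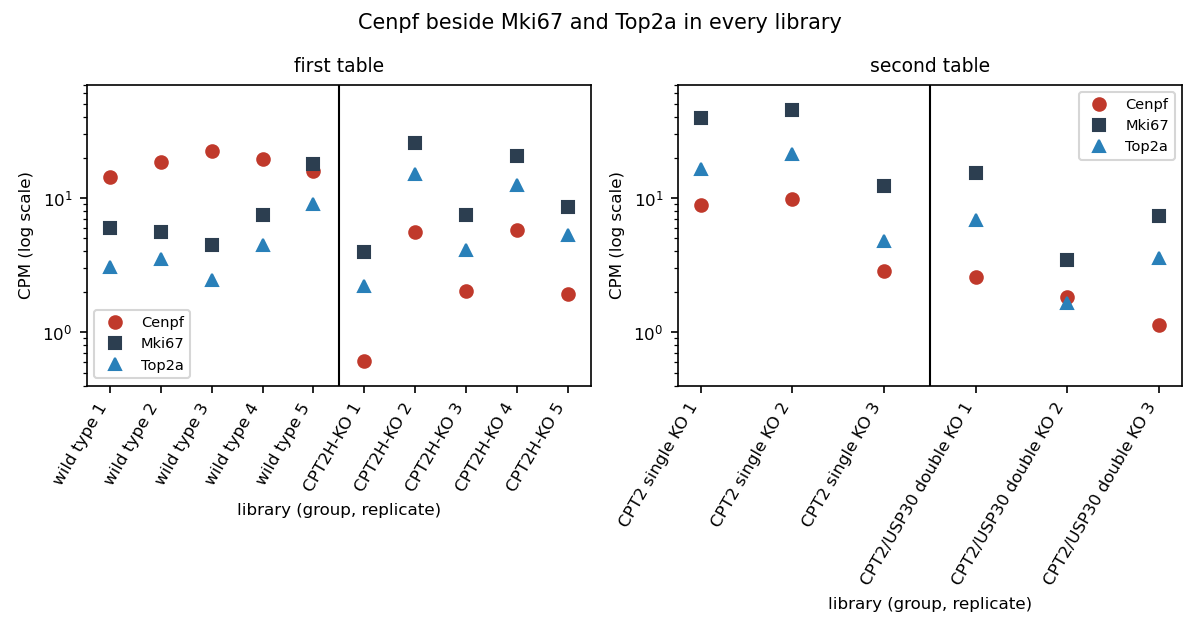
CPM on a log axis of Cenpf, Mki67 and Top2a in each library of the first table (left) and the second (right), with a vertical line between the groups. Cenpf is above Top2a in all wild type libraries and above Mki67 in 4 of 5, and below both in all CPT2H-KO and single KO libraries.

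Cenpf also varied differently among wild type hearts. Its highest wild type value was 1.55 times the lowest, the smallest such ratio of the 35 members, whose median was 3.08, and wild type replicate 5, which was high for the other members, had the second lowest Cenpf value of its group. Among CPT2H-KO hearts the ratio was 9.38, and the 2 libraries highest for Mki67 were highest for Cenpf. Set against Mki67 in the same library, the Cenpf level in CPM was 2.41, 3.3, 5.02, 2.63 and 0.891 times that of Mki67 in wild type and 0.153, 0.219, 0.27, 0.279 and 0.224 times in CPT2H-KO replicates. The mean log2 ratio fell from 1.31 ± 0.92 (SD, n = 5) to -2.16 ± 0.34 (SD, n = 5), and the groups did not overlap. This ratio was chosen after the values had been seen, so no p-value is given for it. Per kilobase of exon, Cenpf was the most abundant member in wild type hearts, at 1.18 CPM per kb ± 0.203 (SD, n = 5) beside 0.821 ± 0.541 for Mki67, and ranked 24 of 35 in CPT2H-KO hearts, at 0.206 ± 0.152, where Mki67 was first at 1.32 ± 0.928.

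Of 7 MCM genes, whose products license and fire replication origins, 7 rose, and their summed level was 18.9 to 24.6 CPM in wild type and 32 to 55.4 CPM in CPT2H-KO libraries, without overlap. CPT2H-KO replicate 1, among the lowest libraries for the mitosis genes, had 49.1 CPM, above 3 of the other 4. Mcm2 rose from 3.25 CPM ± 0.169 to 11.8 ± 3.26 (SD, n = 5 each, edgeR adjusted p = 3.53e-05). Of 19 genes of G1 to S control, 7 rose and 0 fell, among them the D-type cyclin Ccnd2, from 40.6 CPM ± 6.69 to 189 ± 43.6 (SD, n = 5 each, edgeR adjusted p = 1.08e-05), and the transcription factor E2f1, by 2.22 (adjusted p = 0.00109). Of 46 S phase genes, 14 rose and 1 fell, with a median of 0.46. Of 61 further mitosis genes, 14 rose, with the CDK subunit Cks2 (2.08) and the kinetochore protein Spc25 (1.84) among them, and 1, the securin Pttg1, fell by 0.61 on the log2 scale. Their median was 0.76, close to that of the 35 members. Of 5 CDK inhibitors, Cdkn1a (p21) rose by 1.62 (adjusted p = 0.00981), and Cdkn1c (p57) and Cdkn1b (p27) fell by 0.78 and 0.58 on the log2 scale. These changes are read against 16.7% of all genes called higher and 17% called lower.

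Markers of other cell types were set beside these values, with their calls again read against 16.7% of all genes called higher and 17% called lower. The summed level of 11 macrophage markers was 185 to 233 CPM in wild type and 137 to 240 CPM in CPT2H-KO hearts, with none of its genes at 0 and 1 of 11 called, as lower. That of 10 fibroblast markers was 1310 to 1860 and 1560 to 2420 CPM, and 3 of these, Col1a1, Col1a2 and Col3a1, rose and 1, Gsn, fell. Of 10 endothelial markers 1, Tek, was called, as lower, and the summed level was 415 to 523 CPM in wild type and 447 to 604 CPM in CPT2H-KO hearts. The summed level of 8 mural cell markers was 817 to 902 CPM in wild type and 556 to 663 CPM in CPT2H-KO hearts, without overlap, and 4 of them, with Acta2 (-1.75) among them, fell while 1, Notch3, rose. Of 10 cardiomyocyte markers, 6 fell and 1 rose, while their summed levels overlapped, with 56600 to 63700 and 51000 to 59200 CPM. The part of these cell types was not tested. Atrial Myl7 was under 1 CPM in CPT2H-KO replicates 2, 3 and 4, of which 2 and 4 were highest for the members. With an atrial covariate the median of the members was 0.13, 12 were below 0, Mki67 was at -0.12 (adjusted p = 0.886), Rrm2 and Spag5 were no longer called, and Ube2c and Cenpf still were. The part of the dissected tissue in the differences was not tested beyond this. Leaving out wild type replicate 5, the wild type library with the highest level of most members, gave 15 members called higher, beside 16.8% of genes, and leaving out CPT2H-KO replicate 1 gave 9, beside 15.6% of genes. DESeq2 called 7 members higher, beside 19.7% of genes.

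In double KO hearts no member passed the test, and none of 12997 genes did (0% called by edgeR, with 7.25% at an unadjusted p under 0.05; DESeq2 called 120 genes). Every one of the 35 members nevertheless had a lower mean in the double than in the single KO group. Ncapg, Melk and Ttk, among the least abundant members, were removed by the low-count filter, so the following is given without the filter: log2 fold changes of all 35 lay between -2.28 and -0.81 with a median of -1.73, where 48.9% of 17310 genes were below 0, and 31 had an unadjusted p under 0.05, as had 2.7% of genes in that direction. The lowest adjusted p of a member was 0.183. No member had an unadjusted p under 0.05 in the higher direction, where 4.59% of genes did. DESeq2 called 4 members lower, Ccna2, Cenpf, Anln and Racgap1, beside 0.222% of genes. With the filter, the 32 members left had a median of -1.71, beside 0.003 over all 12997 genes, of which 49.6% were below 0, 2.69% had an unadjusted p under 0.05 in the lower direction and 4.55% in the higher.

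**Figure D3:**
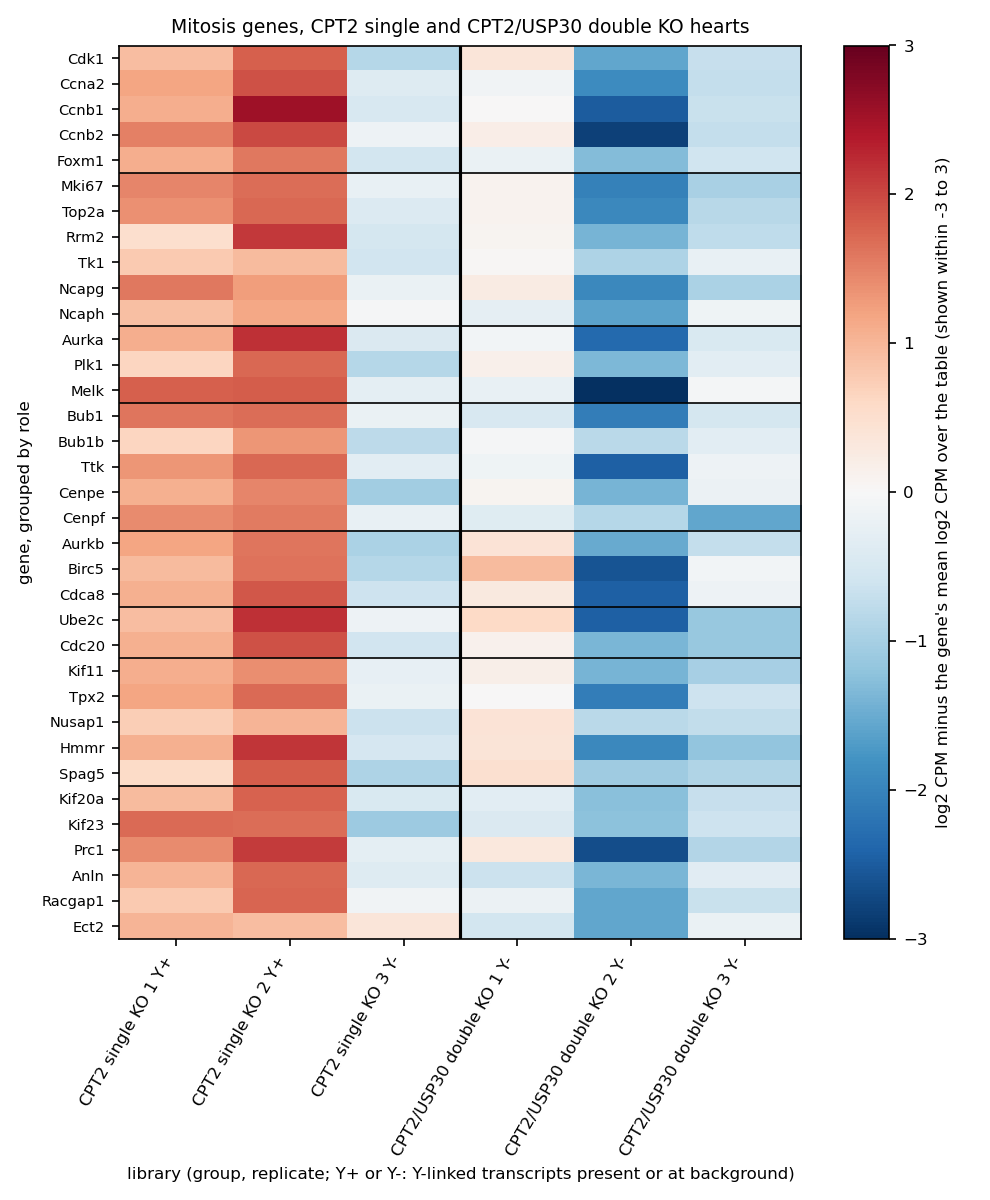
Log2 CPM of each gene in each library of the second table minus the gene's mean over the 6 libraries, grouped by role, with Y+ or Y- for the presence of Y-linked transcripts. Single KO replicates 1 and 2, the Y+ libraries, are the 2 highest for all 35 genes, and double KO replicate 2 is lowest for 34.

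The same 2 hearts stood highest throughout. Single KO replicates 1 and 2 were the 2 highest libraries for all 35 members, and double KO replicate 2 was the lowest for 34. Mki67 was at 39.2, 45.5 and 12.2 CPM in single KO replicates 1 to 3 and at 15.4, 3.48 and 7.29 CPM in double KO replicates 1 to 3. Single KO replicate 3 lay below double KO replicate 1, so the groups overlapped, and the log2 fold change was -1.90, with SE 0.55 (edgeR adjusted p = 0.404). Top2a had 16.5, 21.1 and 4.76 CPM against 6.8, 1.66 and 3.56 CPM with the same order of libraries, and had a log2 fold change of -1.82 (SE 0.57, edgeR adjusted p = 0.466). Summed over the 35 members, the libraries had 257, 402 and 89.1 CPM in the single KO and 126, 38.8 and 74.3 CPM in the double KO group. Double KO replicate 1 exceeded single KO replicate 3 for 26 of the 32 members tested, against 50.4% of genes.

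Single KO replicates 1 and 2 were also the only libraries of the second table with Y-linked transcripts. All 32 members tested were higher in these 2 than in each of the 4 others, an arrangement found for 6.48% of genes. Sex and the double deletion therefore cannot be told apart for these libraries: single KO replicate 3 is the one single KO heart that, like the 3 double KO hearts, lacks Y-linked transcripts. Against it alone, the double KO hearts had a median of -0.25 over the 32 members, from -1.02 to 0.85, with 21 below 0 and 0 at an unadjusted p under 0.05. In that fit the lone single KO heart is assumed to vary like the double KO hearts. With a sex term in the fit of all 6 libraries the median was -0.24, and Mki67 was at -0.48 (adjusted p = 0.843).

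**Figure D4:**
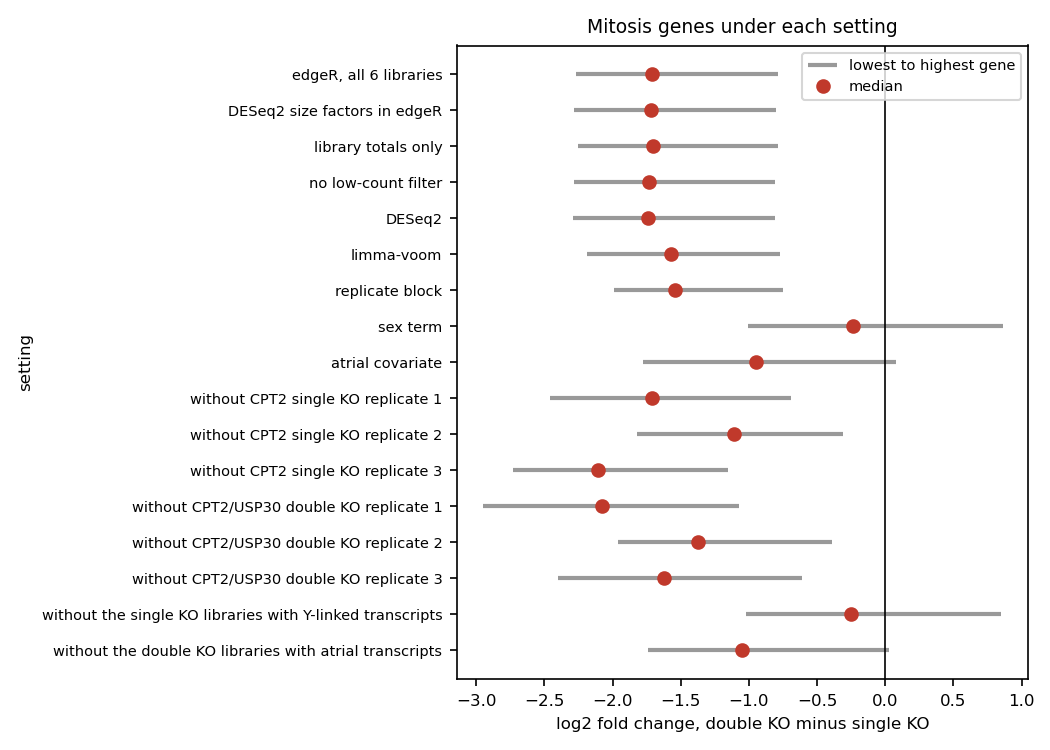
Median (points) and range (lines) of the members' log2 fold changes, double minus single KO, under each setting of the analysis. Medians lie between -2.11 and -0.95 under all settings except the sex term and the removal of single KO replicates 1 and 2, where they are -0.24 and -0.25.

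The groups were separated for 5 members, Ncaph, Bub1, Cenpf, Racgap1 and Ect2, each with all 3 single KO values above all 3 double KO values, as had 5.07% of genes. Cenpf was at 8.87, 9.81 and 2.84 CPM in the single KO and 2.57, 1.82 and 1.13 CPM in the double KO replicates, and its log2 fold change of -1.96 had the smallest p of the members (SE 0.48, edgeR adjusted p = 0.314). Single KO replicate 3 exceeded the highest double KO value only slightly. Cenpf relative to Mki67 was 0.226, 0.215 and 0.233 in the single and 0.168, 0.524 and 0.156 in the double KO libraries, a mean log2 difference of 0.09 with overlapping groups. Per kilobase of exon, Cenpf ranked 32 of 35 in single KO and 33 of 35 in double KO hearts.

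By role, the 5 cyclin-group genes had log2 fold changes from -1.40 (Cdk1) to -2.26 (Ccnb1), with Ccnb2 at -2.02 and Foxm1 at -1.59. Ccna2, cyclin A2, which acts in S phase and early mitosis, was at 12.4, 20.6 and 4.21 CPM against 5.14, 1.49 and 3.32 CPM, overlapping through single KO replicate 3, and had a log2 fold change of -1.90 (SE 0.56, edgeR adjusted p = 0.425). In the DNA and chromosome group, Rrm2 (-1.67), Ncaph (-1.29) and Tk1 (-0.85) were lower on average, and among the kinases Aurka had 4.47, 9.66 and 1.56 CPM against 1.99, 0.414 and 1.54 CPM, a log2 fold change of -1.99 (SE 0.67, edgeR adjusted p = 0.511). Single KO replicate 3 and double KO replicates 1 and 3 were close to each other for Aurka, and Plk1 was at -1.22. The checkpoint kinase Bub1 was at -2.10, its partner Bub1b at -0.99 and the kinetochore motor Cenpe at -1.21.

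In the passenger complex Cdca8 had 4.72, 8.24 and 1.47 CPM against 2.74, 0.414 and 2.02 CPM, a log2 fold change of -1.48 (SE 0.67, edgeR adjusted p = 0.69). Here single KO replicate 3 was below double KO replicates 1 and 3, and with the sex term the log2 fold change was 0.23. Aurkb and Birc5 were at -1.37 and -0.89. Cdc20 had 7.08, 12.7 and 2.29 CPM against 3.73, 1.32 and 1.54 CPM and a log2 fold change of -1.75 (SE 0.59, edgeR adjusted p = 0.514), and Ube2c was at -1.79. Among spindle genes, Tpx2 had 7.89, 11.2 and 3.02 CPM against 3.49, 0.828 and 2.27 CPM, and had a log2 fold change of -1.75 (SE 0.54, edgeR adjusted p = 0.466). For both Cdc20 and Tpx2, single KO replicate 3 lay below double KO replicate 1. Hmmr, Kif11, Spag5 and Nusap1 were at -1.84, -1.47, -1.20 and -0.79. Anln, of the cytokinesis group, had 9.19, 14.8 and 3.48 CPM against 2.9, 1.74 and 3.56 CPM, a log2 fold change of -1.75 (SE 0.48, edgeR adjusted p = 0.381) with double KO replicate 3 just above single KO replicate 3. Kif23, Prc1, Kif20a, Racgap1 and Ect2 were at -1.93, -1.98, -1.72, -1.70 and -1.45.

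**Figure D5:**
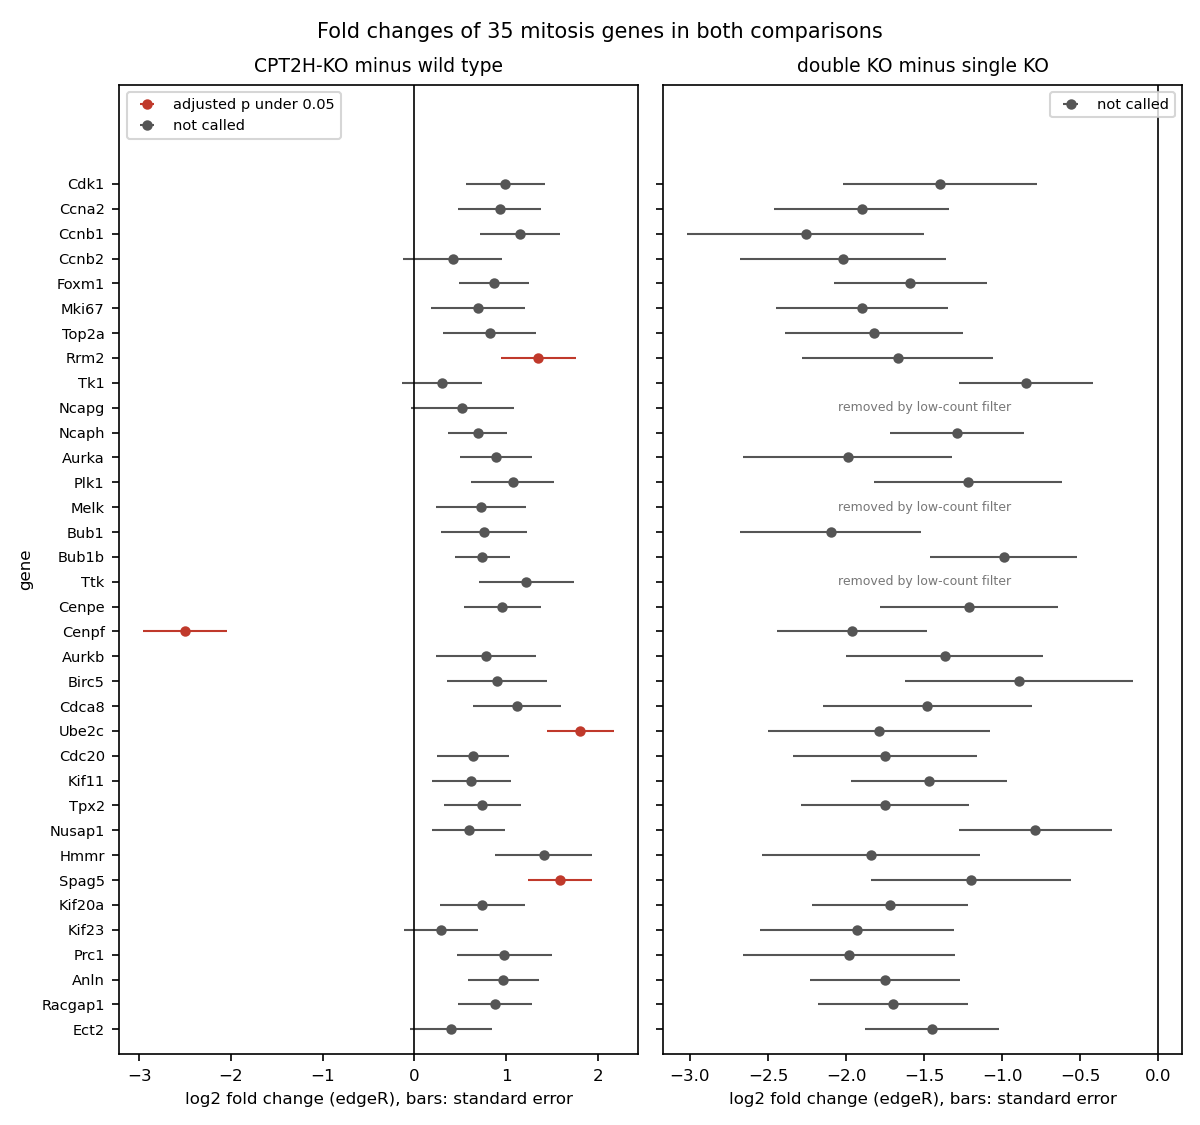
Log2 fold change with its standard error for each gene in CPT2H-KO against wild type (left) and double against single KO (right), from edgeR. Red points passed the adjusted p threshold; on the left all genes but Cenpf lie above 0, and on the right all tested genes lie below 0 without a call.

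The other cell cycle lists of the second table had smaller median differences, although log2 fold changes of the further mitosis genes reached -2.43. None of their genes was called by edgeR. Of 62 further mitosis genes tested, 61 were below 0, with a median of -0.93, and 26 had an unadjusted p under 0.05 in that direction, beside 49.6% and 2.69% of all genes. The condensin II subunit Ncapg2 had the smallest p (-1.52, adjusted p = 0.179). Of 45 S phase genes, 39 were below 0 with a median of -0.34, and medians of the 7 MCM genes and the 19 genes of G1 to S control were -0.52 and -0.29. The 6 CDK inhibitors tested had a median of -0.05. Summed MCM levels were 139, 180 and 103 CPM in the single and 94.9, 82.6 and 99 CPM in the double KO libraries, with single KO replicate 3 again nearest to the double KO hearts. Markers of erythroid cells, whose nucleated precursors divide, had a median of -0.56 over 10 tested, and their summed level over 13 genes was 8340 to 10300 CPM in single KO and 4730 to 7950 CPM in double KO libraries, lowest in double KO replicate 2. Up to 3 of the 13 were at 0 in a library. Slc4a1 was at 7.81, 4.42 and 7.79 CPM in single KO and 2.16, 1.66 and 2.02 CPM in double KO replicates 1 to 3. Alas2 was at 71.7, 68.3 and 100 CPM against 62.3, 38.9 and 69.7 CPM. Hbb-bt was at 413 CPM ± 31.7 in single KO and 260 ± 66.3 in double KO hearts, and Hbb-bs at 2240 ± 217 and 1440 ± 406 (SD, n = 3 each). The part of erythroid cells in the levels of the members was not tested. Macrophage markers had a median of 0.43. Mesothelial markers had a median of 1.98 over 6, with 5 at an unadjusted p under 0.05 in the higher direction, beside 4.55% of genes. Their summed level was 9.13 to 26.5 CPM in single KO and 18.6 to 104 CPM in double KO libraries. Endothelial markers had a median of -0.11 over 10. In 3, Cdh5 (-0.56) among them, all single KO values were higher, as in 5.07% of all genes. In 1, Vwf (0.78), all double KO values were higher, as in 6.69% of all genes. The 3 atrial markers tested had a median of 6.98, Myl7 being present in double KO replicates 2 and 3. With an atrial covariate the median of the mitosis genes was -0.95 and 1 had an unadjusted p under 0.05, and without those 2 double KO libraries the median was -1.05 and 2 did, beside 21% and 19.7% of genes in the same fits. The summed level of 10 fibroblast markers was 3650 to 4580 CPM in single KO and 5210 to 6720 CPM in double KO libraries, without overlap. Of the 10, 0 were at 0 in a library and 0 were called, as was no gene at all. An unadjusted p under 0.05 in the higher direction was found for 5, beside 4.55% of genes. All double KO values lay above all single KO values for 4, beside 6.69% of genes. Beyond these fits, the part of these cells in the differences was not tested.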

How the data were processed

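Total RNA of 16 mouse hearts was sequenced after ribosomal RNA removal with a stranded kit, per the labels' protocols. Per the submitters' processing notes, bcl2fastq, HISAT2, the mm10 build and DESeq2 1.42.0 were used; the annotation, program and strand setting behind the counts were not given in the sources used here. The values the authors deposited are raw counts of reads for each gene, in 2 tables made with different gene sets, so groups were compared within a table only. The first lists 14138 genes, none with fewer than 151 counts in total. In the second, 1 unnamed row was not used.

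Counts were tested with edgeR 4.0.16 (R 4.3.3; filterByExpr, TMM scaling, quasi-likelihood F test) over all genes of a table, with Benjamini-Hochberg adjustment and a threshold of 0.05. The test was first run on simulated counts with known changes. Alternatives were DESeq2 1.42.0, limma-voom (limma 3.58.1), other scaling, no filter, a replicate block, a sex term (Y-linked CPM above 1), an atrial covariate (mean log2 CPM of Myl7, Myl4 and Sln, with 0.5 CPM added) and removal of libraries. Members and lists were chosen with earlier results of these data known. Mki67, Top2a and the member with the smallest p of each role are given by library, and other lists by up to 4 genes of smallest p. Between libraries of a group, the chi-square per gene was lowest for CPT2H-KO replicates 3 and 4, at 9.578. It was 33.32 to 103.1 for the other pairs of the first table and 15.08 to 68.52 for those of the second. CPM per kb uses GENCODE M21 exon lengths (GRCm38, the mm10 assembly).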

Additional observations from a re-analysis of the deposited data

Results flagged for a closer look

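Wild type replicate 5 stood apart from the other 4 wild type libraries for 9 of the 35 mitosis genes. In each case its CPM was the highest of the group, and its gap to the next library was over 0.71 of the group's whole range, a gap that chance gives in about 1 in 20 groups. In all, 70 groups of 5 were examined, and since the members moved together across hearts these results are not independent of each other.

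The largest in CPM was Mki67, at 17.8 CPM against 4.46 to 7.42 in the others. Ccnb1 was at 0.826 CPM (others 0.256 to 0.388), and the mitotic kinase Aurka at 0.793 (others 0.309 to 0.416). Aurkb, with 0.81 CPM, had others at 0.194 to 0.309, and the checkpoint kinase Ttk, with 0.463 CPM, others at 0.0912 to 0.174. The condensin subunit Ncapg was at 1.24 CPM beside 0.235 to 0.514. Among spindle and cytokinesis genes, Tpx2 was at 2.41 CPM (others 0.762 to 1.2), Spag5 at 1.01 CPM (others 0.319 to 0.467) and the motor Kif20a at 1.77 CPM (others 0.809 to 1.05). Kif20a exons share 29.3% of their bases with Cdc23 on the opposite strand. Cdc23 was at 17.2 CPM in wild type replicate 5, beside 18.1 to 18.9 CPM in the other wild type libraries. The cause of the higher values in this heart was not tested.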

How the results depend on the processing

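The fall of Cenpf in CPT2H-KO hearts was called under all 19 alternatives run (log2 fold change -3.31 to -2.13), and so was the rise of Ube2c (1.14 to 2.05). The number of members called higher, 3, became 7 with DESeq2, 5 with limma-voom, 6 with the sex term, 1 with the atrial covariate and 5 without the libraries lacking Y-linked transcripts, where 19.7%, 16.4%, 14.6%, 10.5% and 10.6% of all genes were called higher. It ranged from 2 to 15 when each library was left out in turn, being 15 without wild type replicate 5, 9 without CPT2H-KO replicate 1 and 5 without CPT2H-KO replicate 5. The members' median ranged from 0.13 to 1.18, and Mki67 changed sign with the atrial covariate (-0.12). Scaling by library totals moved the median of all genes to -0.27 and the calls over all genes from 2360 higher and 2398 lower to 827 and 4832; no member changed sign with it.

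In the second table the number of members called lower, 0, became 4 with DESeq2 (Ccna2, Cenpf, Anln and Racgap1, beside 0.222% of genes). The median, -1.71, became -0.24 with the sex term and -0.25 without the single KO libraries with Y-linked transcripts, and Cdca8 changed sign under both settings (0.23 each). The atrial covariate gave a median of -0.95, and it came to -1.05 without the double KO libraries with atrial transcripts, and ranged from -2.11 to -1.11 when each library was left out. With 3 hearts a group and 1 to 608 counts per member and library, depth and number limit the least abundant members. Deviations of same-numbered libraries from their group means had r of -0.047 to 0.262 in the first table and -0.201 to 0.183 in the second. For differently numbered libraries r was -0.22 to 0.201 and -0.294 to 0.235. With the replicate number as a block, 2 members were called higher and 1 lower in the first table, beside 14.6% and 15% of genes, Rrm2 losing its call (adjusted p = 0.0694), and 0 in the second, with medians of 0.74 and -1.54.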

Other observations

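Replication-dependent histone genes, whose transcripts accumulate in S phase and mostly lack poly(A) tails, were also measured. They were taken by the start of the gene symbol, and whether each gene of the list makes only such transcripts was not tested. In CPT2H-KO hearts, of 47 tested, 0 rose and 7 fell, where 16.7% of all genes rose and 17% fell, and the median log2 fold change was 0.05, beside 0.82 for the 35 mitosis genes. Those with the smallest p all fell. They were Hist2h2be (log2 fold change -1.24, edgeR adjusted p = 0.000339), Hist1h2bc (-0.76), Hist1h4h (-0.82) and Hist3h2a (-0.93). The linker histone gene Hist1h1b was at 1.43 CPM ± 0.762 in wild type and 2.14 ± 1.66 in CPT2H-KO hearts (SD, n = 5 each), a log2 fold change of 0.61 (SE 0.50, edgeR adjusted p = 0.371), chosen after its values were seen. Such genes numbered 58 in the second table, of which 39 had 10 or fewer counts in total over the 6 libraries and 12 were tested, with a median of -0.31. Of the 39, 12 were at 0 in every library, and Hist1h1b had 0 to 2 counts in a library. Whether the 2 tables cover transcripts without poly(A) tails alike was not tested.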
